A study of Mus musculus with 8 samples.

Results

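The genes described here are 8 lineage transcription factors of small cell cancer, namely Neurod1, Insm1, Nkx2-1, Foxa2, Nfib, Isl1, Tfap2a and St18. They were taken by symbol from the 22056 genes of the count tables, and all 8 were present. Their levels and their detection in single cells were read in tumour cells, defined as cells in which UMIs (unique molecular identifiers, each counted as 1 mRNA molecule) of the reporter eGFP plus Mycl made up at least 0.2% of all UMIs. This rule kept 34719 of 38460 deposited cells, with 2418 to 6276 per library. Cells near the threshold, with a share of 0.1% to 0.3%, made up 1.85% to 5.0% of the cells that passed the quality filters.

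Small cell lung cancer is a neuroendocrine carcinoma whose cells are sorted into subtypes by the factors that dominate them, Neurod1 among them. Neurod1 is a basic helix-loop-helix activator of neuronal and neuroendocrine genes, and the zinc finger factor Insm1 is a broad marker of neuroendocrine tumours. Nkx2-1 specifies lung epithelium, Foxa2 opens chromatin at endodermal genes, Nfib promotes progression and metastasis in mouse models of this cancer, Isl1 is a LIM homeodomain factor of islet and sensory cells, Tfap2a is an AP-2 factor of neural crest and surface ectoderm, and St18 belongs to the Myt1 zinc finger family.

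Each of the 8 samples is a library of 3′ mRNA ends from single cells of a tumour grown in a mouse from N2N1G, a mouse small cell lung cancer line, so all groups share 1 line and its reporter. Of these, 2 tumours grew in the brain and 3 under the skin of the flank after direct injection, and 3 grew in the liver after injection into the tail vein. All were taken after 3 weeks, and living cells were sorted by flow cytometry. Site and route of injection cannot be told apart for the liver, strain, age and sex of the hosts are not in the labels used here, and the labels do not say that each library came from its own mouse, so the spread may be partly technical.

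Tumour cells held 21689091 to 62047017 UMIs per library, with a median of 7971.5 to 10542 per cell. The label was checked on 14 neuroendocrine markers, whose summed level was 2908 to 3053 CPM (the UMIs of a gene over all UMIs of the tumour cells of a library, times 1000000) in brain, 2805 to 3783 in liver and 2537 to 3281 in subcutaneous libraries, with none of them at 0. Pou2f3, the tuft cell factor, reached at most 0.259 CPM and Yap1 at most 0.129. Of 37556 distinct cell barcodes, 882 occurred in more than 1 library. Subcutaneous replicate 1 stood apart from the other subcutaneous tumours in the factors below and in Mycl (4026 CPM against 6341 and 6469), so each comparison is also given without it. Mycl, a part of the cell rule, was at 5163 and 4158 CPM in brain and at 7400 to 7838 in liver. Tumours in brain held more other cells, with 828 and 260 myeloid cells outside the tumour rule against 7 to 49 in liver and 1 to 122 in subcutaneous libraries. Within the cells called tumour, the 10 myeloid markers summed to 82.0 to 541 CPM in brain, 6.48 to 15.8 in liver and 2.24 to 45.9 in subcutaneous libraries.

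Foxa2 (ENSMUSG00000037025) lies on the minus strand of chromosome 2 at 148042877 to 148046969 in build GRCm38, and Nkx2-1 (ENSMUSG00000001496) on the minus strand of chromosome 12 at 56531958 to 56536908. Both are protein coding. The 250 bases upstream of their annotated starts, which overlap no annotated exon, are printed 5′ to 3′ on the gene's strand from RefSeq (GRCm38.p6). These genes were picked by outcome, since Foxa2 shared cells with Tfap2a beyond expectation in every library and Nkx2-1 did not. A relation between the windows and the shared cells was not tested. Capitals mark a match to GCCNNNGGC, a pattern of AP-2 factors such as Tfap2a. The Foxa2 window spans chr2:148046970-148047219 and the Nkx2-1 window chr12:56536909-56537158.
Foxa2: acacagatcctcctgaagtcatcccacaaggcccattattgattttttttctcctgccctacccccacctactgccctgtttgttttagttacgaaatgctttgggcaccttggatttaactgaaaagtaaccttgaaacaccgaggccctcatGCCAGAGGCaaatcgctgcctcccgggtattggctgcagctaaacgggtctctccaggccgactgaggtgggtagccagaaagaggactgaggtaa
Nkx2-1: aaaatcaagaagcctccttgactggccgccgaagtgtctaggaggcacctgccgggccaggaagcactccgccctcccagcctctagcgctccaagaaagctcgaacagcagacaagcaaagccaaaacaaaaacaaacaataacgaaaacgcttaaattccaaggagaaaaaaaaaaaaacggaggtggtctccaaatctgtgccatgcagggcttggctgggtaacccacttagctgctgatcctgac
The Foxa2 window held 1 match and the Nkx2-1 window 0. The Foxa2 window printed is the farthest upstream of 3 in the table. Of the other 2, which lie within the annotated gene, 1 held 1 match and 1 held 0. Of 32851 promoter windows of the same length, 13.7% held this pattern on either strand. None of the 4 windows of these genes matched CAGCTG, an E-box (13.0% of windows), TGTTTAC, a forkhead pattern (3.17%), or CACTTGA, an NKX2 pattern (2.68%), on either strand. The window of Isl1, which also shared more cells with Tfap2a than expected (103 against 70.9), held 0 matches to GCCNNNGGC. A match of letters is a description of the window and was not tested as a binding site.

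The factors with the broadest expression were Nfib, Insm1 and Nkx2-1. Nfib (ENSMUSG00000008575, chromosome 4, 82290173 to 82705750, minus strand) was at 1387 and 1389 CPM in brain, at 1527, 1317 and 1140 in liver and at 1690, 1477 and 1516 in subcutaneous tumours. Its means of 1388 ± 1.00 (SD, n = 2), 1328 ± 194 (n = 3) and 1561 ± 113 (n = 3) differed by less than the liver SD between brain and liver, and the lowest subcutaneous library was above both brain libraries. Nkx2-1 was at 221 and 221 CPM in brain, at 160, 146 and 182 in liver and at 160, 229 and 212 in subcutaneous tumours. Both brain libraries were above all 3 liver libraries, and the subcutaneous values spanned both. Insm1 (ENSMUSG00000068154, chromosome 2, 146221921 to 146225020, plus strand) was at 319 and 226 CPM in brain, at 233, 174 and 159 in liver and at 260, 168 and 189 in subcutaneous tumours. The 3 sites overlapped for Insm1.

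Foxa2 separated the liver from the other sites. It was at 104 and 126 CPM in brain, at 66.5, 64.4 and 67.6 in liver and at 130, 98.7 and 97.5 in subcutaneous tumours. All 3 liver libraries lay below the other 5, and the brain mean of 115 ± 15.5 (SD, n = 2) and the subcutaneous mean of 109 ± 18.7 (n = 3) overlapped. Isl1 (ENSMUSG00000042258, chromosome 13, 116298281 to 116309689, minus strand) had the same order at a lower level. It was at 13.1 and 14.7 CPM in brain, at 6.52, 6.59 and 7.88 in liver and at 8.70, 18.3 and 14.3 in subcutaneous tumours, where replicate 1 was the lowest. The liver mean was 6.99 ± 0.766 CPM (n = 3), and every liver library was below every other library.

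The remaining factors had few UMIs or differed most between subcutaneous tumours. Neurod1 (ENSMUSG00000034701, chromosome 2, 79452521 to 79456751, minus strand) was at 1.98 and 1.94 CPM in brain, at 3.95, 4.14 and 5.03 in liver and at 0.743, 6.27 and 6.01 in subcutaneous tumours, from 31 to 389 UMIs per library. Its highest library was 8.43 times its lowest, the widest span among the 8 factors. Neurod1 overlaps the annotated gene Cerkl on the same strand, which is also in the tables, so its low counts are uncertain to that extent. Tfap2a (ENSMUSG00000021359, chromosome 13, 40715302 to 40738376, minus strand) was at 30.1 and 37.6 CPM in brain, at 18.2, 16.6 and 18.3 in liver and at 75, 14.1 and 17.4 in subcutaneous tumours. St18 (ENSMUSG00000033740, chromosome 1, 6487231 to 6860940, plus strand) was at 20.1 and 23.0 CPM in brain, at 9.13, 7.61 and 7.58 in liver and at 19.1, 4.85 and 5.45 in subcutaneous tumours. For all 3 genes subcutaneous replicate 1 was far from replicates 2 and 3, with Tfap2a and St18 high and Neurod1 low.

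**Figure D1:**
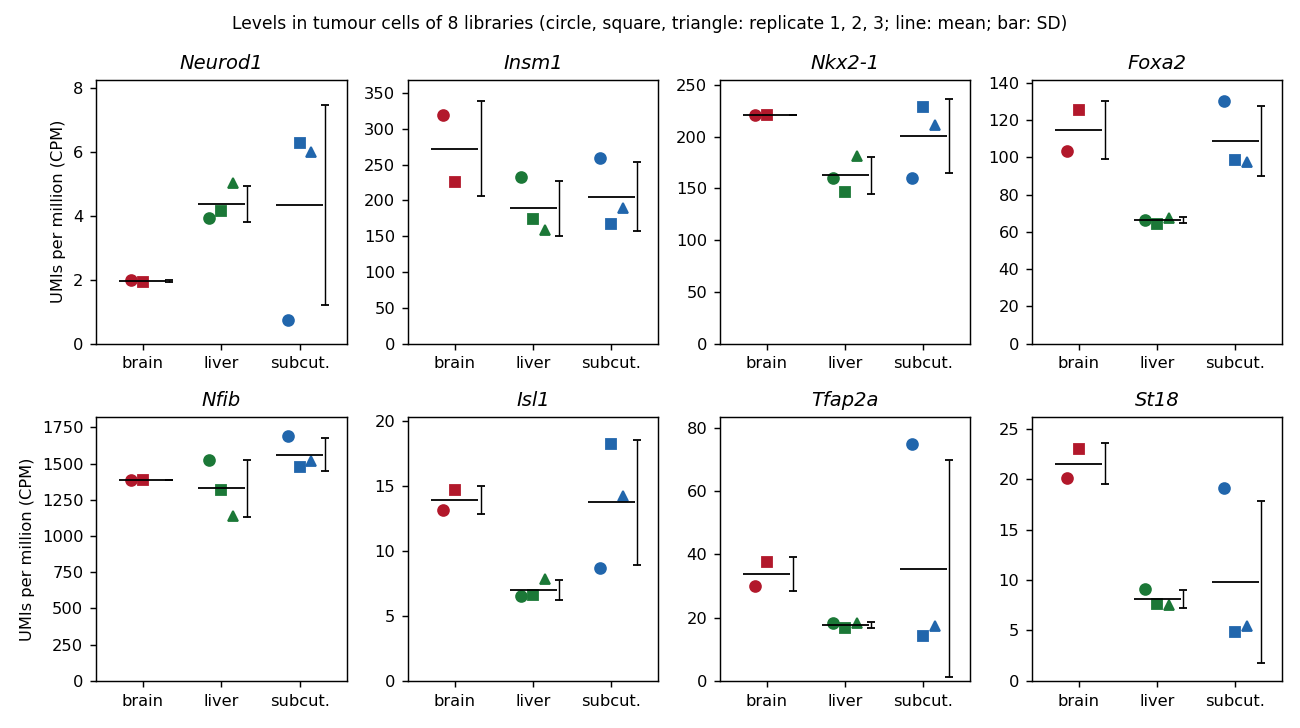
Level of each factor in tumour cells, in CPM (vertical axes from 0, each panel on its own scale), by site; circles, squares and triangles are replicates 1, 2 and 3, horizontal lines the means and bars the SD (n = 2, 3 and 3). Foxa2 and Isl1 were lowest in the 3 liver libraries, and Tfap2a, St18 and Neurod1 of subcutaneous replicate 1 (75, 19.1 and 0.743 CPM) lay apart from the other 2 subcutaneous libraries.

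Detection in single cells was compared after each cell had been thinned at random to 3000 UMIs, because detection rises with depth. Nfib had a UMI in 88.2% to 95.9% of tumour cells, Insm1 in 35.0% to 54.9%, Nkx2-1 in 35.1% to 47.0% and Foxa2 in 15.4% to 30.3%. The other 4 factors were detected in minorities, Tfap2a in 3.90% to 20.2%, St18 in 1.61% to 7.48%, Isl1 in 1.85% to 4.65% and Neurod1 in 0.151% to 1.74%. Without thinning the same shares were higher, for example 39.7% to 60.4% for Foxa2 and 7.95% to 38.8% for Tfap2a. The Foxa2 share was 22.7% and 30.3% in brain, 17.0%, 15.4% and 16.5% in liver and 29.9%, 22.1% and 23.1% in subcutaneous tumours, so the liver again lay below every other library. Shares did not overlap between brain and liver for 7 of 8 factors, all but Nfib, where those of 48.9% of 10056 genes did not. Between brain and subcutaneous tumours this held for St18 alone (42.7% of genes), and between liver and subcutaneous tumours for Foxa2 and Isl1 (29.2%). The 10056 genes are those with a mean share of 1% to 90% over the libraries, a range that leaves out Neurod1 and Nfib.

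Myeloid cells, which should lack these factors, were used to gauge free RNA where enough were present. The liver libraries held 4, 20 and 5 such cells at 3000 UMIs, and subcutaneous replicates 2 and 3 held 1 each. In liver a count of 0 among them allows a share of up to 15% to 75%. The low shares of Isl1, Tfap2a, St18 and Neurod1 could thus not be set against free RNA in those libraries. In brain replicate 1 (563 myeloid cells at 3000 UMIs, median 4274 UMIs before thinning against 7971.5 in tumour cells), 3.55% had an Insm1 UMI, 2.31% an Nkx2-1 UMI, 0.888% a Foxa2 UMI and 8.17% an Nfib UMI. In the tumour cells of that library the shares were 54.9%, 44.7%, 22.7% and 88.2%. Isl1, Tfap2a and St18 were each found in 0.178% of these myeloid cells. In brain replicate 2, 2.41% of 166 myeloid cells had an St18 UMI against 7.48% of tumour cells. Neurod1 was found in 0 of 563 myeloid cells, which allows a share of up to 0.533%, and in 0.575% of the tumour cells of that library (95% exact interval 0.306% to 0.981%). In subcutaneous replicate 1 it was found in 6 of 3983 tumour cells (0.151%, 0.0553% to 0.328%), below the limit that 0 of 87 myeloid cells allows (3.45%), so expression there was not detectable above free RNA at this depth. These intervals and limits cover counting error only.

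Brain against liver asked which factors differ between tumours of 1 line at these sites. In edgeR's quasi-likelihood test on UMIs summed over the tumour cells of each library, 2 of 8 factors passed an adjusted p of 0.05, where 21.8% of the 13931 tested genes did (13.2% higher and 8.56% lower in brain). Foxa2 was 1.60-fold higher in brain (log2 0.68, SE 0.14, adjusted p = 0.0110) and Isl1 1.84-fold higher (log2 0.88, SE 0.26, adjusted p = 0.0404). The share of the 8 factors is near the background, and the levels of 6 of 8 did not overlap between brain and liver, where 53.2% of all genes did not. The median of the 8 log2 differences was 0.55 against 0.00 over all tested genes. St18 (log2 1.30, SE 0.53, adjusted p = 0.124), Tfap2a (0.82, SE 0.67, adjusted p = 0.424), Neurod1 (−1.27, SE 0.73, adjusted p = 0.249), Insm1 (0.41, SE 0.23, adjusted p = 0.233), Nkx2-1 (0.33, SE 0.15, adjusted p = 0.142) and Nfib (−0.05, SE 0.14, adjusted p = 0.808) did not pass. The Foxa2 call ended without brain replicate 2 (log2 0.54, adjusted p = 0.0824). The Isl1 call ended without either brain library, any liver library or subcutaneous replicate 3 (adjusted p = 0.0604 to 0.20), and under 6 other choices of cells or depth (adjusted p = 0.0527 to 0.0989), among them all deposited cells, where Foxa2 missed too (adjusted p = 0.0525).

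Subcutaneous replicate 1 set part of the spread in that model. It was singled out by the levels of these same factors and of Mycl, so calls made without it, here and below, are descriptions. Without it, 6 of 8 factors passed between brain and liver, where 32.9% of genes did, with nearly the same differences. Foxa2 (log2 0.68, adjusted p = 0.000556), Isl1 (0.88, adjusted p = 0.00138), Nkx2-1 (0.33, adjusted p = 0.0229), Tfap2a (0.83, adjusted p = 0.000916) and St18 (1.30, adjusted p = 8.22e-05) were higher in brain, and Neurod1 (−1.27, SE 0.17, adjusted p = 0.000377) was lower. A model of the brain and liver libraries alone called the same 6 factors. Within the brain libraries, astrocyte markers summed to 66.7 to 85.5 CPM in tumour cells (17.1 to 20.9 in liver) and oligodendrocyte markers to 160 to 228 CPM (44.5 to 48.9 in liver). All 6 astrocyte and all 7 oligodendrocyte markers passed between brain and liver, and their part in the differences of the factors was not tested.

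Brain against subcutaneous used the same brain libraries, and 0 of 8 factors passed, where 15.1% of genes did (8.94% higher and 6.13% lower in brain). In edgeR 0 had an unadjusted p under 0.05, and DESeq2 also called 0. The largest differences were St18 at log2 1.15 (SE 0.53, adjusted p = 0.187) and Neurod1 at −1.16 (SE 0.72, adjusted p = 0.318), and Foxa2 differed by 0.07 (SE 0.14, adjusted p = 0.768). Levels of St18 and Nfib did not overlap between the sites, which is 2 of 8 against 46.8% of all genes. Without subcutaneous replicate 1, 4 of 8 passed against 34.3% of genes. St18 was then 2.07 higher in brain on the log2 scale (SE 0.16, adjusted p = 1.61e-05), Tfap2a 1.11 higher (SE 0.14, adjusted p = 0.000352) and Insm1 0.61 higher (SE 0.20, adjusted p = 0.0428), whereas Neurod1 was lower (−1.65, SE 0.18, adjusted p = 0.000123). For Tfap2a the sign turned, from −0.06 with that library to 1.11 without it.

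Liver against subcutaneous, which shares libraries with both comparisons above, gave 1 of 8 factors where 2.83% of genes passed (0.933% higher and 1.90% lower in liver). Foxa2 was 1.52-fold lower in liver (log2 −0.61, SE 0.13, adjusted p = 0.0447). Isl1, 1.83-fold lower, missed the threshold (log2 −0.87, SE 0.23, adjusted p = 0.0894) and passed in DESeq2 (adjusted p = 0.0155). Those 2 factors had levels that did not overlap, where 27.7% of genes had. The Foxa2 call ended when any library but subcutaneous replicate 1 was left out (adjusted p = 0.0587 to 0.205), and under 5 other choices of cells, depth or libraries (adjusted p = 0.0516 to 0.130). Without subcutaneous replicate 1, 3 factors passed against 7.39% of genes, Foxa2 (log2 −0.46, adjusted p = 0.0236) and Isl1 (−1.11, adjusted p = 0.00287) lower in liver and St18 (0.77, adjusted p = 0.0145) higher. With all libraries St18 differed by −0.15 (SE 0.49).

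**Figure D2:**
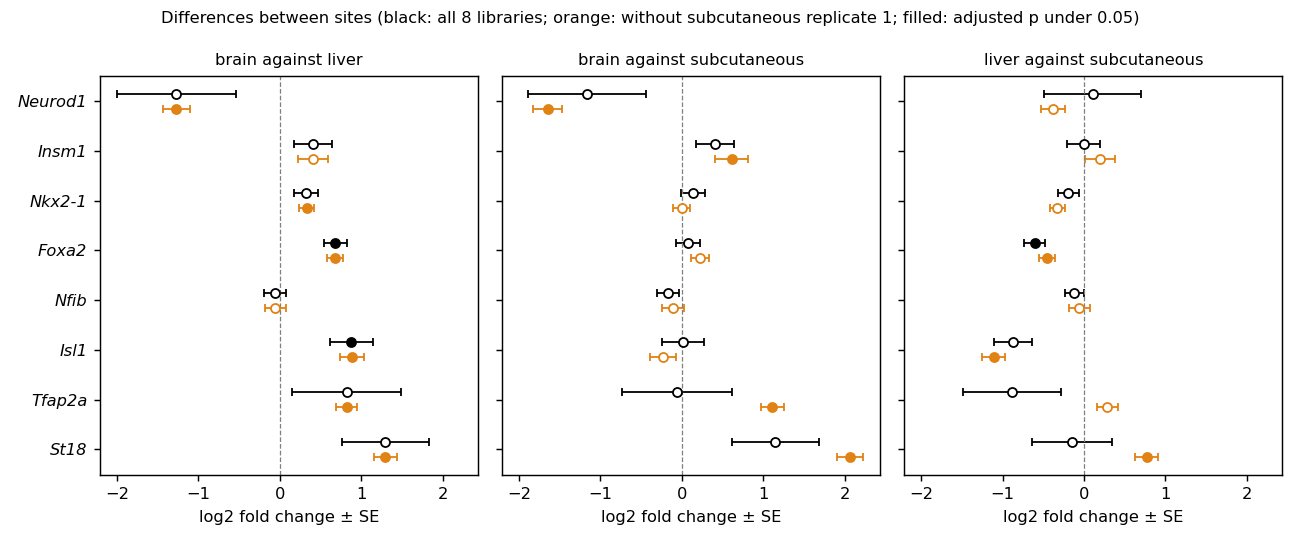
Log2 fold change of each factor between sites (horizontal axis, first site minus second, bars ± SE), in black with all 8 libraries and in orange without subcutaneous replicate 1; filled points had an adjusted p under 0.05 in edgeR. With all libraries only Foxa2 and Isl1 were filled, and the bars of Neurod1, Tfap2a and St18 narrowed when that library was left out.

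Close relatives of the factors were read from a list of 20 paralogs, of which 14 were tested. Between brain and liver 6 passed, with 5 higher and 1 lower in brain and a median log2 difference of 0.85, where 21.8% of all genes passed. Tfap2c, the AP-2 relative of Tfap2a, was at 7.84 and 7.23 CPM in brain, at 26.6 to 31.5 in liver and at 8.34, 16.2 and 19.6 in subcutaneous tumours, and was lower in brain than in liver by log2 −2.06 (SE 0.31, adjusted p = 0.00307). Nfia, a relative of Nfib, was at 13.9 and 11.5 CPM in brain and 2.76 to 3.87 in liver (log2 1.83, SE 0.48, adjusted p = 0.0288). The other 4, named here to complete the count and after their values were seen, were Nfix (log2 0.62), Insm2 (1.19), Myt1l (2.35) and Tfap2e (4.86), all higher in brain. Nkx2-2 was at 34.8 CPM in subcutaneous replicate 1 and at 5.35 to 17.8 in the other libraries, and did not pass in any of the site comparisons with all libraries. Without subcutaneous replicate 1 it was higher in brain than in liver (log2 0.76, adjusted p = 0.00916) and than in subcutaneous tumours (1.253, adjusted p = 0.00124). Between brain and subcutaneous tumours 2 of 14 relatives passed where 15.1% of all genes did (Myt1l, log2 1.71, and Tfap2e, 3.35, both higher in brain), and between liver and subcutaneous tumours 1 of 14 where 2.83% did (Insm2, log2 −1.41, adjusted p = 0.0219). With that library left out, 13 relatives were tested. Of these 9 passed between brain and liver and 9 between brain and subcutaneous tumours, each time 8 higher and 1 lower in brain, where 32.9% and 34.3% of all genes passed. Between liver and subcutaneous tumours 3 then passed, 1 higher and 2 lower in liver, where 7.39% of all genes did.

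Other lineage factors came from a list of 66, of which 53 were tested. Between brain and liver 21 passed, 14 higher and 7 lower in brain, with a median log2 difference of 0.14. Among the largest differences of those at 5 CPM or more were the mesenchymal repressors Zeb2 (log2 1.5, SE 0.24, adjusted p = 0.00423) and Zeb1 (1.17, SE 0.23, adjusted p = 0.00818), the epithelial factor Elf3 (1.26, SE 0.17, adjusted p = 0.00205), Mycn (1.24, SE 0.19, adjusted p = 0.00312), Sox2 (0.99) and Lhx1 (0.94), all higher in brain. Grhl2, a keeper of epithelial identity, was lower (−1.5, SE 0.25, adjusted p = 0.00447), as was the helix-loop-helix inhibitor Id2 (−1.05). Between brain and subcutaneous tumours 9 of 53 passed, 2 higher and 7 lower in brain. The endocrine progenitor factor Neurog3 (log2 1.35, adjusted p = 0.0303) and Tcf4 (0.59) were higher, and Grhl2 (−1.03), Onecut2 (−0.85), Id2 (−0.84), Pou4f1 (−0.83), Pax9 (−0.78) and Hey1 (−0.56) were among those lower. Between liver and subcutaneous tumours 6 passed, all lower in liver, among them Elf3 (−1.41), Zeb2 (−1.40), Mycn (−1.04) and Klf5 (−0.95). When subcutaneous replicate 1 was left out, 52 were tested. Of these 26 passed between brain and liver, 16 higher and 10 lower in brain. Between brain and subcutaneous tumours 21 then passed, 11 higher and 10 lower in brain, so the lean to lower values was gone. Between liver and subcutaneous tumours 10 then passed, 1 higher and 9 lower in liver. The shares of all genes are those given for the relatives. Within the cells called tumour, the summed myeloid, astrocyte and oligodendrocyte markers were higher in brain than at the other sites. Their part in the differences of these factors and of the relatives was not tested.

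Of 10 lung epithelial genes known as targets of Nkx2-1 and Foxa factors, 7 were tested and 1 passed between brain and liver, where 21.8% of all genes did. It was the club cell gene Scgb1a1, which had 0 UMIs in both brain libraries and 4, 38 and 54 in the liver libraries. Sftpc, the surfactant protein C gene, was at 222 and 191 CPM in brain and at 278 to 365 in liver and did not pass with all libraries (log2 −0.69, SE 0.31, adjusted p = 0.143). Without subcutaneous replicate 1, 3 of these 7 genes passed between brain and liver, where 32.9% of all genes did. Among the 3, 1 was higher and 2 lower in brain, with Sftpc lower (log2 −0.69, adjusted p = 0.00152). Between brain and subcutaneous tumours 3 passed then too, 2 higher and 1 lower in brain, where 34.3% of all genes did. Sftpc was lower there (−0.59, adjusted p = 0.0055). With all libraries 0 of 7 had passed in that comparison, where 15.1% of all genes did. For a list of 7 these counts are not far from the shares of all genes.

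Whether the factors occur in the same cells was read as the number of cells with both UMIs over the number expected from the 2 shares, in each library at 3000 UMIs per cell. Of 28 pairs, 19 had at least 5 expected cells in all 8 libraries. Most lay near 1, and for none of those 19 was the ratio below 1 in every library, so no mutually exclusive pair was seen among them. Pairs with Nfib, which had a UMI in 88.2% to 95.9% of cells, could rise only little above 1, so their nearness to 1 says little. Foxa2 and Tfap2a had the highest ratio of these 19, a geometric mean of 1.67 over the 8 libraries. It was 1.58 and 1.49 in brain, 1.42, 1.90 and 1.93 in liver and 1.37, 1.98 and 1.83 in subcutaneous tumours. In all, 933 cells held both against 598 expected. Among genes with a value, 99.97% had a lower mean ratio with Foxa2 than Tfap2a had. Read from Tfap2a, 99.6% had a lower mean ratio than Foxa2. Genes found in most cells could not reach such a ratio, since their share limits it. Cells of 1 library share its RNA, depth and composition, so these ratios are descriptions without a test.

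**Figure D3:**
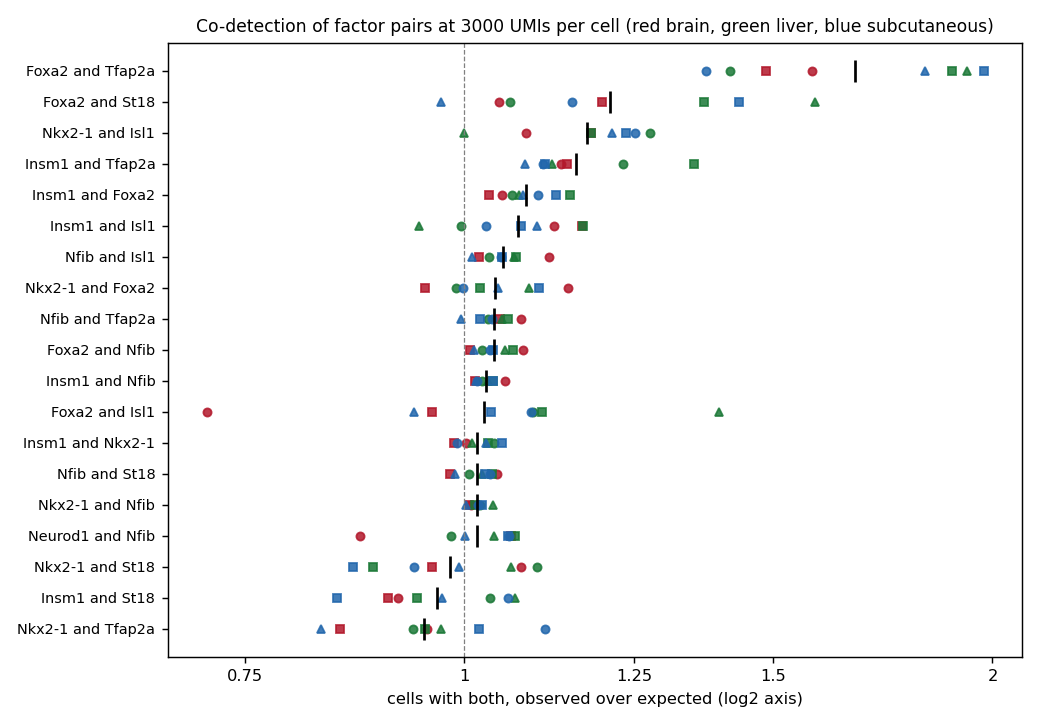
Observed over expected number of cells with both factors (horizontal log2 axis) for the 19 pairs with a value in all libraries; points are libraries (circle, square and triangle for replicates 1, 2 and 3) and black ticks geometric means. Foxa2 with Tfap2a was at 1.37 to 1.98, and most other pairs lay around 1.

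The same joint counts can be read as shares. Foxa2 had a UMI in 35.8% and 45.0% of Tfap2a-positive cells in brain, against 21.7% and 28.7% of Tfap2a-negative cells. The shares were 24.2%, 29.2% and 32.0% against 16.7%, 14.8% and 15.7% in liver. In subcutaneous tumours they were 41.0%, 43.7% and 42.2% against 27.1%, 21.2% and 22.1%. In subcutaneous replicate 1 Tfap2a-positive cells made up 20.2% of cells (95% exact interval 18.9% to 21.5%). Without the 5% of cells with the most UMIs, where cell doublets would be sought, the mean log2 ratio was 0.75 against 0.74. When at least 2 UMIs of each were required, 2 libraries had at least 5 expected cells, with ratios of 3.94 in brain replicate 2 (20 cells against 5.08 expected) and 2.40 in subcutaneous replicate 1 (27 against 11.3).

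Tfap2a was also found with St18 and Isl1 in more cells than expected. With St18, 171 cells held both against 110 expected (ratio 1.56, counting interval 1.33 to 1.81), and the ratio was above 1 in each of the 5 libraries with enough cells. With Isl1, 103 held both against 70.9 expected (1.45, 1.19 to 1.76), and the ratio was above 1 in each of the 4 libraries with enough cells. Both intervals cover the counting error of cells pooled over libraries, not the spread between libraries. With Insm1 the ratio was 1.08 to 1.35 with a geometric mean of 1.16, which lay within the range of other genes with Tfap2a, since 79.6% had a lower mean and the 95th percentile was 1.30. Read from Insm1, 99.5% of genes had a lower mean ratio than Tfap2a. Nkx2-1 with Tfap2a had ratios of 0.828 to 1.11 and 6 of 8 libraries below 1.

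**Figure D4:**
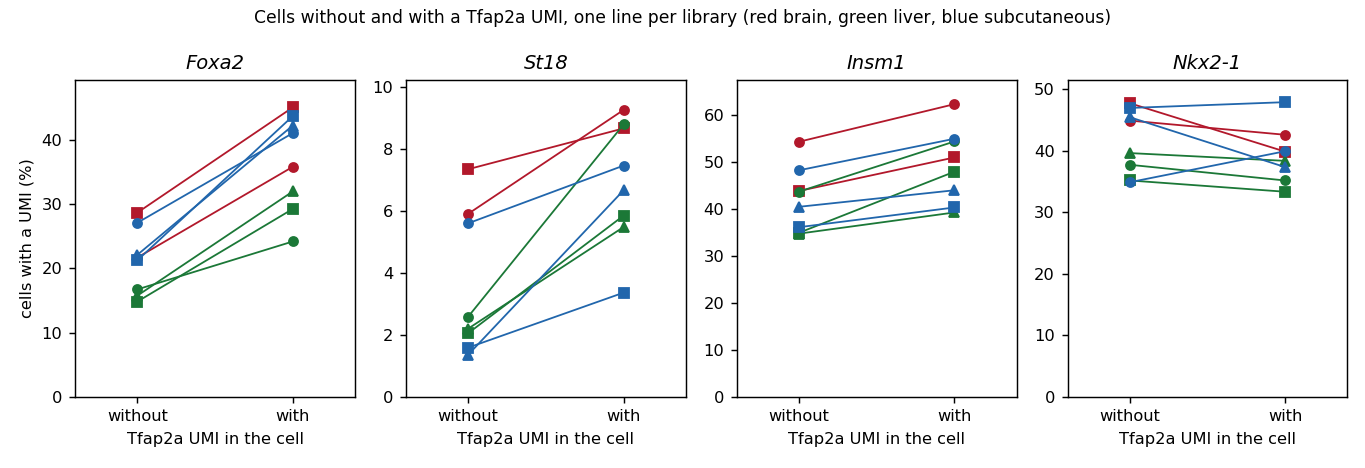
Share of tumour cells with a UMI of Foxa2, St18, Insm1 or Nkx2-1 (vertical axes, %, from 0) among cells without and with a Tfap2a UMI at 3000 UMIs per cell; each line is a library, red brain, green liver, blue subcutaneous. The Foxa2, St18 and Insm1 lines rise in all 8 libraries, and the Nkx2-1 lines rise in 2.

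The rare factors gave few joint cells. Neurod1 and Isl1 were together in 24 cells where 12 were expected (ratio 2.00, counting interval 1.28 to 2.98). No library had 5 expected cells for this pair, and 10 of the 24 cells came from subcutaneous replicate 2. Neurod1 and St18 shared 4 cells against 9.11 expected (0.439, 0.120 to 1.12), Neurod1 and Tfap2a 13 against 18.3 (0.711, 0.379 to 1.22), and Isl1 and St18 26 against 35.0 (0.744, 0.486 to 1.09). These 3 intervals include 1. Like that of Neurod1 with Isl1, they cover the counting error of pooled cells only, so neither an excess nor a deficit was tested. Nkx2-1 and Isl1 were found together more often than expected in the pooled cells (534 against 447, ratio 1.19), with library ratios of 1.00 to 1.28. Foxa2 with St18 ranged from 0.970 to 1.58. The most common state was 2 of the 8 factors detected, in 35.4% to 40.9% of the cells of each library. Cells with none made up 1.4% to 5.23%, against 0.907% to 3.57% if the factors were independent, and cells with 4 made up 3.71% to 11.8%, against 3.07% to 11%. No cell held all 8.

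Genes detected in the same cells were ranked by the mean phi coefficient (a correlation of detection, 0 for independence) over the 8 libraries, among 10056 genes found in 1% to 90% of cells. A minimum of 0.1 was reached for Nfib and Tfap2a alone. Among the genes most like Nfib were Sox11 (0.16) and Marcks (0.14). Tfap2a was most like Nkx2-2, Il17b and Bcl11a (0.14 each), and least like Igfbp2 (−0.15) and Crip1 (−0.14), the latter 2 named after their values were seen. For Foxa2 the first gene was Tfap2a itself, at 0.0923.

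Partner genes named by earlier results of these data were read in the same cells. Their choice was not independent of these data, so the shares are descriptions. Cldn7, a tight junction gene, had a UMI in 11.1% to 29.2% of Tfap2a-positive cells and in 1.28% to 8.46% of Tfap2a-negative cells, higher in 8 of 8 libraries. Htr3a, a serotonin receptor channel, was found in 15.9% to 45.9% of Isl1-positive and 18.1% to 28.2% of Isl1-negative cells, higher with Isl1 in 7 of 8 libraries. Sftpc was found in 20.8% to 51.5% of Nkx2-1-positive and 23.1% to 52.3% of Nkx2-1-negative cells. Its share was lower with Nkx2-1 in every library but liver replicate 1 (47.8% against 45.1%). En1, a homeobox gene, was found in 20.9% and 16.7% of St18-positive cells in brain (29 and 50 cells), against 11.5% and 11.8% of the others there. In subcutaneous replicate 1 it was found in 5.04% (12 cells) against 3.47%, and in each of the other 5 libraries 0 to 4 cells held both.

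Cycling cells were compared with the rest of each tumour. Cells with at least 4 UMIs (at 3000 per cell) over 20 genes of G2 and mitosis were called G2/M-high and made up 33.1% to 40.8% of tumour cells. In edgeR with the library as a block, 5 of 8 factors passed, where 61.4% of 12269 genes did. All 5 were higher in G2/M-high cells, where 28.1% of genes were higher and 33.3% lower. Without subcutaneous replicate 1, 4 of 8 passed, where 58.6% of genes did. Nkx2-1 rose by log2 0.32 (SE 0.02, adjusted p = 2.44e-10), and smaller differences passed for Nfib (0.29, SE 0.02, adjusted p = 4.11e-12), Insm1 (0.17, SE 0.02, adjusted p = 1.68e-07) and Tfap2a (0.16, SE 0.04, adjusted p = 0.00167). St18 also passed (0.20, SE 0.08, adjusted p = 0.0400). Its call ended in DESeq2 (adjusted p = 0.0567), with DESeq2's size factors in edgeR (adjusted p = 0.0537) and without any of liver replicate 1, liver replicate 2 or a subcutaneous library (adjusted p = 0.0880 to 0.103). Foxa2 (−0.03, SE 0.03), Isl1 (0.03, SE 0.06) and Neurod1 (−0.02, SE 0.09) did not pass.

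Per library the G2/M difference was higher in 8 of 8 for Nkx2-1 (log2 0.20 to 0.45), Nfib (0.16 to 0.38) and Insm1 (0.06 to 0.28), where 19.0% of genes were higher in all 8. Nfib was at 1487 against 1334 CPM in brain replicate 1 and at 1753 against 1343 in subcutaneous replicate 3, the smallest and largest of these differences. Tfap2a was higher in 7 of 8, St18 and Isl1 in 6 and Foxa2 in 3. The 3 libraries with more Foxa2 in G2/M-high cells were the subcutaneous ones (log2 0.03 to 0.15), and those of brain and liver had less (−0.15 to −0.05). An interaction with site, added after seeing the data, did not pass for Foxa2 (edgeR adjusted p = 0.0531) and passed for Nfib (adjusted p = 0.0469), where 4.56% of genes did. Of the other lineage factors 28 of 43 tested passed, 6 higher and 22 lower in G2/M-high cells, and of the relatives 7 of 12, 1 higher and 6 lower. Tfap2c (log2 −0.97) and the listed factors Neurog3 (−1.28), Hes5 (−0.69), E2f1 (−0.61), a cell cycle factor, and Mycl (−0.58) were lower in G2/M-high cells. Sox4 (−0.50), Neurod4 (−0.43), Gfi1 (−0.38) and Lhx3 (−0.35) were lower too, and Klf5 (0.34) was higher. Mycl counts toward the rule that chose the cells.

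**Figure D5:**
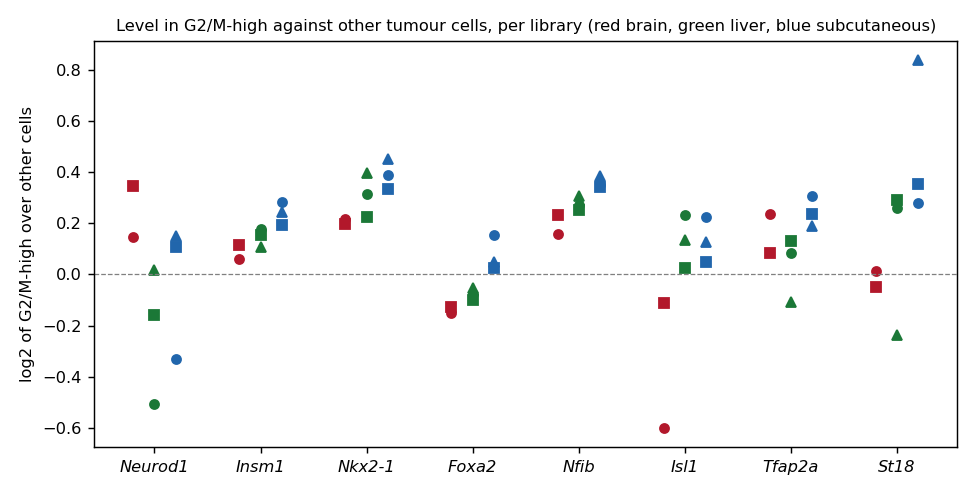
Log2 ratio of each factor's level (CPM) in G2/M-high over other tumour cells (vertical axis), 1 point per library, red brain, green liver and blue subcutaneous, with circle, square and triangle for replicates 1, 2 and 3. Nkx2-1, Nfib and Insm1 were above 0 in all 8 libraries, and Foxa2 was above 0 in the 3 subcutaneous libraries and below 0 in the other 5.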

How the data were processed

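RNA of single cells was read in 8 samples by the 10x Genomics 3′ method, per the labels' protocols. The authors deposited a matrix of whole-number UMI counts per sample, in Cell Ranger 3.0.0 format per the file headers; Cell Ranger, STAR and build mm10 are named in the submitters' processing notes. The strand setting and annotation are not given in the sources used here. Groups were taken from sample titles.

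Cells were kept from 500 detected genes up and up to 10% of UMIs from mitochondrial genes, before the eGFP plus Mycl rule was applied. No doublet caller was run, and an alternative left out the 5% of cells with the most UMIs. UMIs were summed per library and compared in R 4.3.3 with edgeR 4.0.16 (TMM, filterByExpr, robust quasi-likelihood, all 8 libraries in 1 model, with 5 degrees of freedom left and a biological coefficient of variation of 17.9%, Benjamini-Hochberg adjustment over all tested genes, threshold 0.05). Each SE was derived from the fold change and its F statistic. DESeq2 1.42.0 was an alternative. Intervals of joint cell counts are exact Poisson on cells pooled over the 8 libraries, with the expected count taken as fixed. Myeloid cells failed the tumour rule and had at least 10 UMIs over 10 markers. Python 3.11.15 and scipy 1.17.1 were used, and the tests were checked on simulated data. Genes of the lists were named where they passed and reached 5 CPM, up to 10 per comparison in order of fold change. The factors and lists were chosen with earlier results of these data known. Results for 1 gene of the lists are not reported here.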

Additional observations from a re-analysis of the deposited data

Results flagged for a closer look

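In groups of 4 to 10 values, a value was picked out where its gap to the nearest other was large for the range of its group, which chance does in about 1 in 20 groups; 32 groups were tested. The log2 difference of Isl1 between G2/M-high and other cells was −0.60 in brain replicate 1 (10.1 against 15.4 CPM) and −0.11 to 0.23 in the other 7 libraries. The log2 co-detection ratio of Neurod1 with Nkx2-1 was −0.54 in brain replicate 1, and that of Neurod1 with Nfib was −0.20, both lower than in every other library with a value and both resting on 13 Neurod1-positive cells.

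For Nfib the rise in G2/M-high cells differed between sites in an interaction test added after seeing the data (edgeR adjusted p = 0.0469). On the log2 scale it was 0.22 for brain, 0.27 for liver and 0.35 for subcutaneous libraries.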

How the results depend on the processing

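Detection of Isl1, St18, Tfap2a and Neurod1 was limited by depth, since few cells held their UMIs. With all libraries, brain against liver called 2 factors. It called 6 with these 2 sites alone, 1 with the tumour rule at 0.5%, with at least 1 eGFP UMI, with cells thinned to 3000 UMIs, with equal cell numbers and without Tfap2a-positive cells (added after seeing the data), and 0 over all deposited cells. The setting without Tfap2a-positive cells, here and below, also used cells thinned to 3000 UMIs. Its lost calls can therefore not be credited to the removal of those cells. Leaving out 1 library gave 0 to 6 factors and 1112 to 4557 genes, against 3032.

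Brain against subcutaneous called 2099 genes, or 728 with these sites alone, and 383 to 4754 without 1 library (0 to 4 factors). Liver against subcutaneous called 394 genes, or 1059 and 2 factors in DESeq2. It called 233 genes with at least 1 eGFP UMI and 81 over all deposited cells. No factor passed in these 2 settings, with these sites alone, with thinned cells or with thinned cells without a Tfap2a UMI. Leaving out 1 library gave 33 to 1024 genes and 0 to 3 factors.

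The replicate numbers were not taken as pairs. Deviations of same-numbered libraries correlated at −0.25 to 0.26. With the replicate number as a block, brain against liver called 2482 genes and 2 factors, brain against subcutaneous 1378 and 0, and liver against subcutaneous 229 and 0. Without the library block, G2/M-high against other cells called 2021 genes and 2 factors, against 7535 and 5, and with 1 library left out 7037 to 7414 and 4 or 5.

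Some log2 differences changed sign. None of these had passed with all libraries. With the turned sign only Tfap2a in brain against subcutaneous and St18 in liver against subcutaneous passed, both without subcutaneous replicate 1.
Nfib in brain against liver was 0.017 without G2/M-high cells and −0.17 to 0.065 with 1 library left out.
In brain against subcutaneous, Nkx2-1 was −0.0051 and Foxa2 −0.052 over all deposited cells, and Foxa2 was −0.073 to 0.23 with 1 library left out. Isl1 there was −0.0079 with no filter on low counts, −0.019 with at least 1 eGFP UMI, −0.12 over all deposited cells, −0.093 thinned, −0.023 with equal cell numbers, −0.076 without Tfap2a-positive cells, −0.016 without the 5% of cells with the most UMIs, and −0.23 to 0.29 with 1 library left out. Tfap2a there was 0.11 with the replicate block, 0.017 without G2/M-high cells and −0.42 to 1.11 with 1 library left out.
In liver against subcutaneous, Neurod1 was −0.046 without Tfap2a-positive cells and −0.38 to 0.47 with 1 library left out. Insm1 was 0.0014 in DESeq2, 0.0015 with its size factors, 0.0013 with these sites alone, 0.0008 at the 0.5% rule, 0.014 over all deposited cells, 0.022 with equal cell numbers, 0.019 without G2/M-high cells and −0.19 to 0.20 with 1 library left out. Tfap2a was −1.26 to 0.28 and St18 −0.47 to 0.77 with 1 library left out, and St18 was 0.043 with the replicate block.
In G2/M-high against other cells, Isl1 was −0.012 without the library block and Neurod1 −0.064 to 0.0595 with 1 library left out. The cause of these changes was not tested.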
